A study of Mus musculus with 12 samples.

Results

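Ordinary room temperature was compared with thermoneutrality in the interscapular brown fat of mice. Of the 12 libraries of the series, 8 enter the comparison, 4 from mice at 22 °C (mild cold) and 4 from mice at 30 °C (thermoneutral). They were chosen by the temperature letter of their column, R for 22 °C and T for 30 °C. The remaining 4 libraries, from mice at 6 °C, lend their spread to the model and enter 1 test that compares the temperature steps. All mice were wild-type C57BL/6J animals, kept at their temperature for 4 weeks, from 10 to 14 weeks of age. Interscapular brown fat is the heat-making fat depot between the shoulder blades, and 1 library stands for 1 mouse. Libraries are called here by mouse number, 1, 2, A and B at 30 °C and 1 to 4 at 22 °C. A and B are the columns whose numbers match no 30 °C title, so they rest on the letter alone.

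A mouse at 30 °C need not make extra heat, whereas at 22 °C it must, and brown adipocytes do so by burning fatty acids and glucose in mitochondria uncoupled by UCP1. Noradrenaline from sympathetic nerves drives both lipolysis and the transcription of thermogenic genes, and insulin and carbohydrate drive the synthesis of new fatty acids through the transcription factors SREBP1c and ChREBP. The depot also holds blood vessels, fibroblasts and macrophages, whose RNA is measured together with that of the adipocytes. In bulk RNA, fewer cells of a type and less RNA per cell cannot be told apart.

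Total counts were 18290162 to 29870740 per library, except 86438386 in 22 °C mouse 3, whose library code (8846) also lies apart from the others of the 8 (7510 to 7520). Defining markers of brown adipocytes were abundant in all 8 libraries, with a summed level of 4115 to 9460 CPM (counts scaled to a common effective library size, which is the library total times its TMM scaling factor, which was 1.105 to 1.227 at 30 °C and 0.9173 to 0.9822 at 22 °C). Skeletal muscle markers summed to 6001 CPM in 30 °C mouse 1 and 4301 in 22 °C mouse 4, against 1120 to 1810 in the other libraries. The libraries A and B had the highest macrophage marker sums, 1956 and 2313 CPM. Gm42418, a locus of ribosomal RNA repeat sequence singled out after its values were seen, stood at 1267, 236, 1679 and 256 CPM at 30 °C and 11555, 9696, 1343 and 5777 CPM at 22 °C. It was high in 22 °C mice 1, 2 and 4 and not in mouse 3. Its part in the results was not tested beyond a fit with its level as a covariate, chosen after seeing the data. It is called the Gm42418 covariate here and is given where it ends a call or moves a list's count by over 1.5 times. Gm42418 was itself higher at 22 °C (log2 fold change 3.04, adjusted p = 0.035, edgeR's quasi-likelihood test). The covariate and the temperature therefore cannot be fully told apart.

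Nearly as many genes were higher as were lower in mild cold. Of 38924 listed genes, 14870 had enough counts to be tested by edgeR's quasi-likelihood test, and 6634 passed an adjusted p under 0.05 (44.6%). At 22 °C, 3248 genes were higher (21.8%) and 3386 lower (22.8%), and a gene is said to have risen or fallen at 22 °C only if it passed this threshold. Sizes of rises and falls are on the log2 scale unless CPM are named, and means are given ± SD over 4 mice. The ranges of the 4 mice of each group did not overlap for 2814 genes that were higher (18.9%) and 2975 that were lower (20%). Large changes were mostly falls, with 421 genes higher by 2-fold or more (2.83%) and 1449 lower by as much (9.74%). Genes that rose had a median change of 0.495 on the log2 scale and a median level of 38.98 CPM, and genes that fell a median change of 0.87 and a median level of 8.778 CPM. Scaled by total counts alone, 1419 genes were higher and 6224 lower, with the median of all genes moved by -0.26 on the log2 scale, so that 18.6% of the calls were higher in place of 49.0%. Without the libraries A and B, 2151 genes were higher and 2303 lower, of which 2096 and 2235 were among those of the full comparison. With the level of Gm42418 as a covariate, 1656 were higher and 1873 lower.

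**Figure D1:**
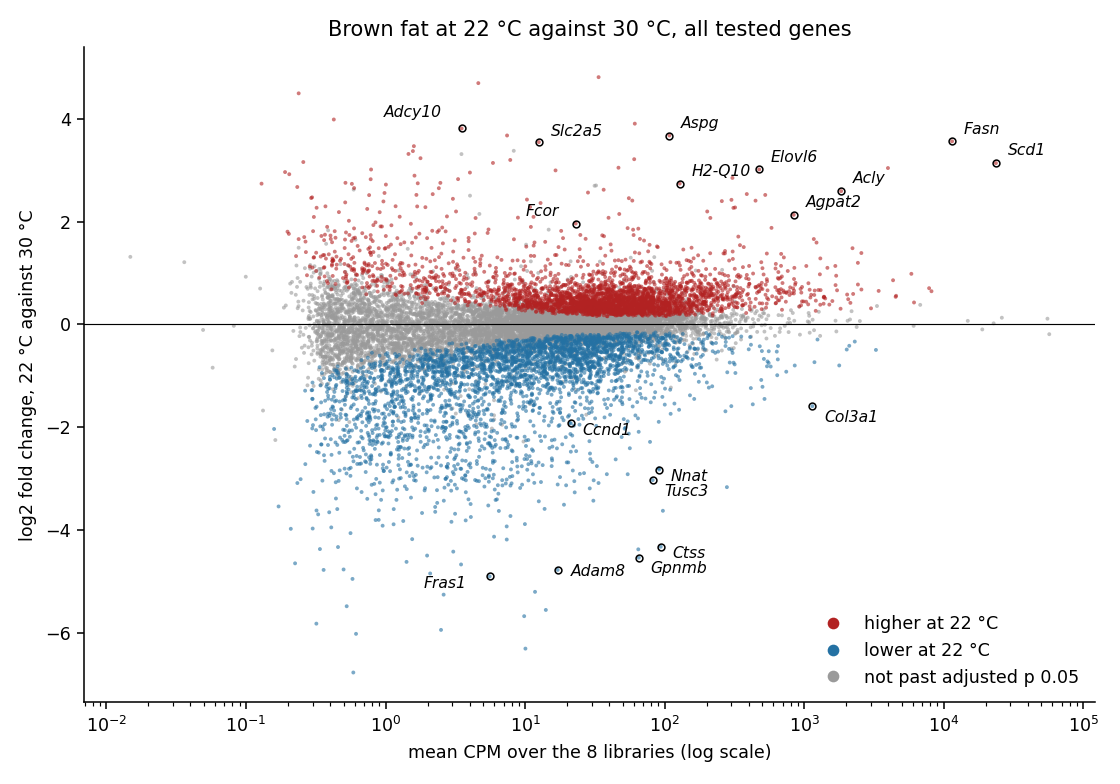
Each point is 1 of the 14870 tested genes, with the mean CPM over the 8 libraries on a log axis and the log2 fold change at 22 °C against 30 °C (edgeR). Red points are higher and blue points lower at an adjusted p under 0.05, and circled genes are named. Scd1 and Fasn sit at the right edge with log2 fold changes of 3.14 and 3.57, and most genes below -2 lie under 100 CPM.

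The enzymes that make fatty acids had the largest median change of the fuel pathway lists. In fatty acid synthesis 17 of 22 tested members rose and 3 fell (median log2 fold change 1.46), beside a median of -0.019 over all tested genes. Together the transcripts of Scd1, the desaturase that makes oleate, and Fasn, fatty acid synthase, took 0.367% to 0.985% of all counts at 30 °C and 5.6% to 6.4% at 22 °C. Scd1 alone stood at 4634, 6065, 2567 and 5956 CPM at 30 °C and 39499, 48685, 40978 and 40378 CPM at 22 °C (log2 fold change 3.14, SE 0.23, adjusted p = 3.2e-06), and Fasn at 4128, 1353, 721 and 931 CPM at 30 °C and 27656, 19211, 19700.0 and 17878 CPM at 22 °C (log2 fold change 3.57, SE 0.51, adjusted p = 0.00028). Neither gene's groups overlapped. Acly, which cleaves citrate to cytosolic acetyl-CoA, stood at 1053, 439, 303 and 293 CPM at 30 °C and 4687, 3780.0, 2367 and 1778 CPM at 22 °C. Its groups did not overlap, although 30 °C mouse 1 lay above the other 30 °C mice (log2 fold change 2.6, SE 0.46, adjusted p = 0.0011). Acss2, which makes acetyl-CoA from acetate, stood at 154, 122, 94.2 and 84.8 CPM at 30 °C and 869.5, 730.3, 574 and 470.0 CPM at 22 °C, again with no overlap (log2 fold change 2.54, SE 0.24, adjusted p = 2e-05). Acaca, the carboxylase that commits acetyl-CoA to fatty acids, stood at 315, 129, 87.9 and 91.7 CPM at 30 °C and 1082, 853, 899 and 743 CPM at 22 °C (log2 fold change 2.52, SE 0.38, adjusted p = 0.0004). Its mitochondrial counterpart Acacb, whose product malonyl-CoA restrains fatty acid oxidation, rose from 562 ± 89.9 to 1778 ± 179.9 CPM, a log2 fold change of 1.66 (SE 0.12, adjusted p = 3.2e-06). Elovl6, which lengthens palmitate to stearate, stood at 189, 84.6, 75.8 and 68.9 CPM at 30 °C and 1151, 752, 753 and 727 CPM at 22 °C (log2 fold change 3.02, SE 0.32, adjusted p = 5e-05). In Acaca and Elovl6, as in Fasn, 30 °C mouse 1 was the highest of its group and 22 °C mouse 1 the highest of the other. Without 30 °C mouse 1 the log2 fold changes were 4.4 for Fasn, 3.12 for Acaca and 3.19 for Acly, and without A and B Fasn stood at 2.95. With the Gm42418 covariate, Acly stood at 1.95.

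Per kilobase of exon at 22 °C, Scd1 reached 8660 CPM, Fasn 1930, Acly 597, Acacb 185, Elovl6 132 and Acaca 52.4. The order of the 6 levels was the same at 30 °C, from 982 CPM per kilobase for Scd1 to 9.13 for Acaca. The later steps of elongation rose as well. Hsd17b12, the ketoreductase of the elongation cycle, rose from 149.6 ± 17.9 to 390.2 ± 34.5 CPM and Hacd2, a dehydratase of the same cycle, from 47.9 ± 2.26 to 109.6 ± 14 CPM, with log2 fold changes of 1.38 and 1.19. The 3 members that fell were Fads1, Fads2 and Elovl1, an elongase of very long chains, named after their values were seen. Fads1, the delta-5 desaturase of polyunsaturated fatty acids, stood at 34.8, 45.9, 35.3 and 40 CPM at 30 °C and 19.3, 17.6, 22.7 and 20 CPM at 22 °C, with no overlap (log2 fold change -0.97, SE 0.1, adjusted p = 2.4e-05). Fads2, the delta-6 desaturase, fell by 1.01 (SE 0.14, adjusted p = 0.00016). Both desaturases of the polyunsaturated branch were thus lower and the enzymes of the saturated and monounsaturated branch named above were higher.

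**Figure D2:**
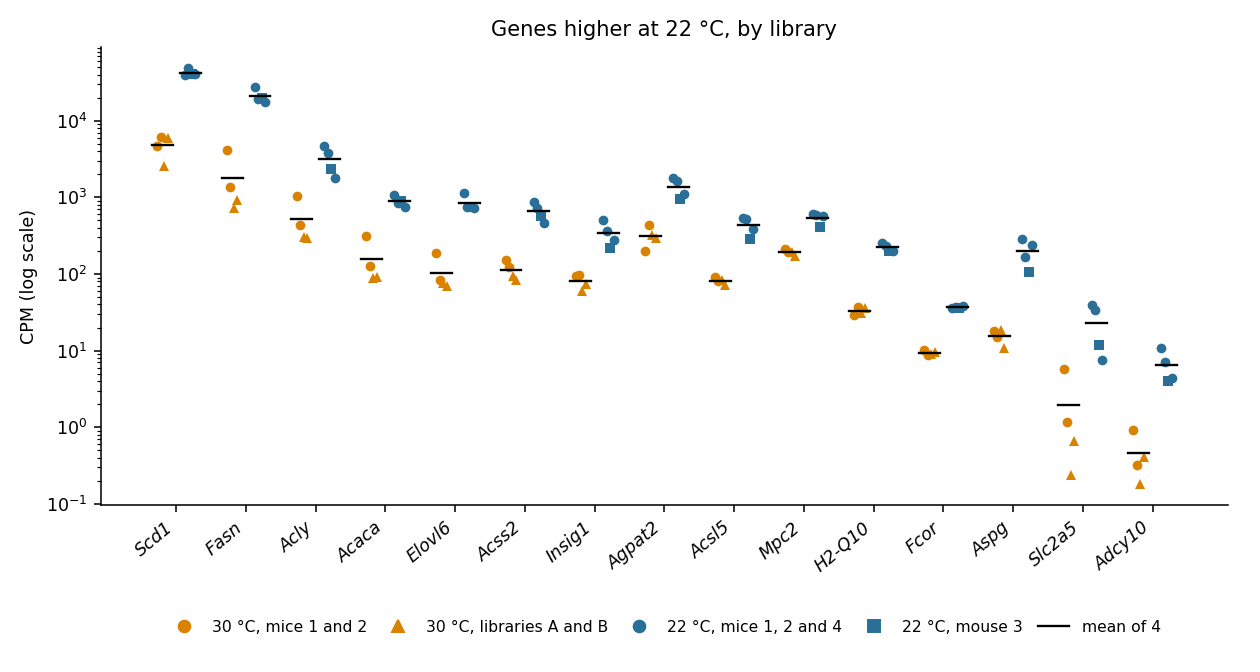
CPM of 15 genes that were higher at 22 °C, by library, on a log axis. Circles, triangles and squares are single mice and the bars are means of 4. In each gene the lowest 22 °C mouse lies above the highest 30 °C mouse. 30 °C mouse 1 is the highest of its group for Fasn, Acly, Acaca, Elovl6, Acss2, Acsl5, Mpc2, Fcor, Slc2a5 and Adcy10.

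The regulators of lipogenesis had a smaller median change than the enzymes. Among them 10 of 14 tested members rose and 0 fell (median log2 fold change 0.48). Scaled by total counts 6 rose and 2 fell, and with the Gm42418 covariate 5 rose and 0 fell. Srebf1, which encodes SREBP1, stood at 281, 253, 229.9 and 195 CPM at 30 °C and 611, 506, 369 and 349.9 CPM at 22 °C, with no overlap between the groups (log2 fold change 0.94, SE 0.18, adjusted p = 0.0013). With the level of Gm42418 as a covariate its adjusted p was 0.058. Mlxipl, which encodes ChREBP, stood at 388, 287, 271 and 238 CPM at 30 °C and 644, 642, 332 and 431 CPM at 22 °C, where 22 °C mouse 3 lay within the 30 °C range (log2 fold change 0.79, SE 0.21, adjusted p = 0.0098). Mlxipl lost its call without A and B (adjusted p = 0.12) and with the Gm42418 covariate (adjusted p = 0.38). Insig1, which retains SREBP in the endoplasmic reticulum and is itself an SREBP target, stood at 94, 98.1, 60.1 and 73.9 CPM at 30 °C and 511, 365, 219 and 277 CPM at 22 °C (log2 fold change 2.07, SE 0.25, adjusted p = 9.6e-05). Pnpla3, a lipid droplet protein regulated by both factors, rose from 249 ± 67.9 to 916 ± 237 CPM, a log2 fold change of 1.88 (SE 0.27, adjusted p = 0.00026). Mlx, the partner of ChREBP, and Nr1h3, the oxysterol receptor LXR-alpha, rose by 0.65 and 0.57 on the log2 scale.

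Short motifs known for these and other factors were looked for, on both strands, in RefSeq promoter windows (GRCm38.p6) from 250 bases before to 50 bases after each gene start. Of the 12 genes with the largest rises by the naming rule, 9 matched a window, 11 windows in all, and these held the E-box CACGTG in 0 windows, beside 7.15% of all 32851 windows. They held the sterol response element core TCACNCCAC in 0 windows, beside 1.24% of all. The NF-Y box CCAAT stood in 4 of the 11 (36.4%), beside 37.4% of all windows, and so at the background share. The cholesterol synthesis windows held CCAAT in 14 of 18 (77.8%) and the proliferation windows in 20 of 23 (87%). Lists of which few members changed had it as often, with 17 of 19 windows of endoplasmic reticulum chaperones (89.5%) and 16 of 21 of clock genes (76.2%). PU.1 boxes, spelled GAGGAAGT, stood in 3 of the 11 windows found for 9 of the 12 genes with the largest falls, beside 3.2% of all windows, and in 1 of the 11 of the largest rises. The macrophage marker windows held this box in 1 of 14 (7.14%) and the lipid-associated macrophage windows in 2 of 22 (9.09%). The cAMP response element TGACGTCA stood in 0 windows of the largest rises and 0 of the largest falls, beside 1.79% of all, and the ERR element TCAAGGTCA in 0 and 1, beside 0.423%. Windows of the tested genes alone are the closer background. They held the E-box in 9.6%, the sterol response element core in 1.14% and CCAAT in 37%. The PU.1 box stood in 3.19% of them, the cAMP response element in 2.86% and the ERR element in 0.288%. Shown are upstream stretches of 2 lipogenic genes that rose, with the matches in capitals, and of 2 macrophage genes and 1 mitosis gene that fell. Fasn lies at chr11:120824582-120824657 on the minus strand and holds 3 CCAAT matches, a pair of which overlap on opposite strands (ATTGG is CCAAT read on the other strand). Insig1, at chr5:28071176-28071336 on the plus strand, holds a CCAAT box and an E-box. Spp1, at chr5:104434978-104435089 on the plus strand, holds a PU.1 box, a sterol response element core and a CCAAT box. Mmp12, at chr9:7344289-7344336 on the plus strand, holds a PU.1 box. Top2a, at chr11:99024223-99024436 on the minus strand, holds 6 CCAAT boxes. The windows and stretches are from RefSeq. A match is a description of letters and no sign that a factor binds there.
Fasn: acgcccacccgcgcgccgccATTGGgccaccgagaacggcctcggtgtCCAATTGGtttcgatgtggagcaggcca
Insig1: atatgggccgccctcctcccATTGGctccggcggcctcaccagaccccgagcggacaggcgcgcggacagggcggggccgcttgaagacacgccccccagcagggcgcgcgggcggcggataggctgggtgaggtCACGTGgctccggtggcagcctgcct
Spp1: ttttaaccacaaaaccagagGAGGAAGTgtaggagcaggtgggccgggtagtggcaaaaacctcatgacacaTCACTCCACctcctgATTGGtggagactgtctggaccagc
Mmp12: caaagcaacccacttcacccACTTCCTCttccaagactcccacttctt
Top2a: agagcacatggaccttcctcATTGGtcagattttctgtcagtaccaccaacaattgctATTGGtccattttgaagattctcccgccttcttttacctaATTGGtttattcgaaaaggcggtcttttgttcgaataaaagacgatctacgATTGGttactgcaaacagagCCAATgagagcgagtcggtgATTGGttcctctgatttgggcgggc

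Most genes of the routes that feed fatty acid synthesis with carbon and NADPH rose. In glycolysis and glucose uptake 15 of 21 tested members rose and 2 fell (median log2 fold change 0.58), and for NADPH supply, the pentose phosphate pathway included, 8 of 10 tested members rose and 0 fell (median log2 fold change 0.91). In the first of these lists 8 rose and 1 fell with the Gm42418 covariate, and 1 fell without A and B or without any 1 of 30 °C mouse 2 or B or 22 °C mouse 1 or 2. Slc2a5, a fructose transporter, stood at 5.79, 1.17, 0.24 and 0.662 CPM at 30 °C and 39.6, 33.8, 11.7 and 7.48 CPM at 22 °C, with no overlap but a wide spread (log2 fold change 3.55, SE 0.86, adjusted p = 0.0078). Its call was lost without A and B (log2 fold change 2.69, adjusted p = 0.064) and with the Gm42418 covariate (2.39, adjusted p = 0.14), and without 30 °C mouse 1 its log2 fold change was 5.11. Slc2a4, the insulin-responsive glucose transporter GLUT4, stood at 447, 391, 358 and 274 CPM at 30 °C and 647, 673, 487 and 489.7 CPM at 22 °C (log2 fold change 0.64, SE 0.16, adjusted p = 0.0048), and its adjusted p was 0.14 with the Gm42418 covariate. Aldoa, the aldolase that splits fructose bisphosphate, rose from 1043 ± 162 to 2295 ± 71.1 CPM and Ldha, which interconverts pyruvate and lactate, from 425 ± 73.8 to 937 ± 58.4 CPM. Both had a log2 fold change of 1.14, and in both every 22 °C mouse lay above every 30 °C mouse. Eno1, enolase, rose by 1.11 (SE 0.13) and Pfkp, a phosphofructokinase, by 0.72 (SE 0.1). Pfkfb3, which makes the activator of phosphofructokinase, stood at 665, 659, 365 and 658 CPM at 30 °C and 609, 337, 367 and 626 CPM at 22 °C, with overlapping groups (log2 fold change -0.27, SE 0.23, adjusted p = 0.37).

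Taldo1, the transaldolase of the pentose phosphate pathway, stood at 347, 291, 299 and 261 CPM at 30 °C and 816, 814, 747 and 739 CPM at 22 °C (log2 fold change 1.38, SE 0.09, adjusted p = 1.9e-06). The mice of each group lay close together, and the groups were far apart. G6pdx, the NADPH-making entry enzyme, rose by 1.01 (SE 0.11) and Idh1, the cytosolic NADPH-making isocitrate dehydrogenase, by 0.75 (SE 0.09).

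Pyruvate entry, the TCA cycle and the nuclear genes of the respiratory chain rose by small but closely repeated amounts. For pyruvate and the TCA cycle 29 of 32 tested members rose and 2 fell (median log2 fold change 0.62), and with the Gm42418 covariate 18 rose and 2 fell. In this list 1 fell without any 1 of 30 °C mouse 2 or A or 22 °C mouse 1. Mpc1 and Mpc2, the paired subunits of the mitochondrial pyruvate carrier, rose by 1.55 and 1.51 on the log2 scale (SE 0.12 and 0.11). Mpc2 stood at 209, 193, 192 and 174 CPM at 30 °C and 610.3, 585, 417 and 567 CPM at 22 °C, and 22 °C mouse 3 was the lowest of its group but above every 30 °C mouse. Pcx, pyruvate carboxylase, rose from 539.7 ± 80.7 to 1158 ± 95.8 CPM, and Pdhx, the component that anchors part of the pyruvate dehydrogenase complex, from 84.1 ± 14.7 to 176 ± 21.9 CPM. In respiratory complex I 35 of 37 tested members rose and 0 fell (median log2 fold change 0.58), and in complexes II to V 39 of 43 tested members rose and 2 fell (median log2 fold change 0.65). Cox6a1, a subunit of cytochrome c oxidase, stood at 657, 672, 683 and 573 CPM at 30 °C and 1387, 1613, 1208 and 1479 CPM at 22 °C (log2 fold change 1.14, SE 0.1, adjusted p = 6.9e-06). Uqcrq and Uqcr10, small subunits of complex III, rose by 1.09 and 0.96, and Ndufa1 and Ndufc1 of complex I by 1.00 and 0.84. Ndufs7, the most abundant complex I subunit that did not pass, stood at 372, 392, 416 and 323 CPM at 30 °C and 405, 489.7, 324 and 428 CPM at 22 °C (log2 fold change 0.13, adjusted p = 0.37), and this value was -0.13 when scaled by total counts. With the Gm42418 covariate 23 rose and 0 fell in complex I and 27 rose and 2 fell in complexes II to V.

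The tested messenger RNAs of the mitochondrial genome did not follow the nuclear genes of the respiratory chain. Of the 13 messenger RNAs listed, mt-Nd4l, mt-Co2, mt-Co3, mt-Atp6 and mt-Atp8 had too few counts to be tested. Why their counts were so low was not tested. Of the rest 0 of 8 tested members rose and 1 fell (median log2 fold change -0.004), a median that was 0.02 under DESeq2's size factors. Scaled by total counts the median was -0.26, beside the shift of -0.26 in the median of all genes on that scale, and 0 rose and 3 fell. mt-Co1, which encodes the core subunit of cytochrome c oxidase, stood at 60209, 65373, 66614 and 50482 CPM at 30 °C and 47621, 55445, 56411 and 53133 CPM at 22 °C, with overlapping groups (log2 fold change -0.19, SE 0.12, adjusted p = 0.23). The member that fell was mt-Nd3, a complex I subunit whose level was only 5.39 ± 1.54 CPM at 30 °C (log2 fold change -1.5, SE 0.24, adjusted p = 0.00033). As a share of the total counts all genes of the mitochondrial genome together took 23.58%, 25.8%, 25.6% and 21.71% of the counts at 30 °C and 19.25%, 21.66%, 21.44% and 20.86% at 22 °C. The means were 24.17% ± 1.924 (SD, n = 4) and 20.8% ± 1.089 (SD, n = 4), a difference of -3.37 percentage points. Every 22 °C mouse lay below every 30 °C mouse, and the two-sided exact permutation test gave p = 0.02857, the smallest that 4 against 4 mice can give. Without A and B the difference was -3.887, with exact permutation p = 0.06667, the smallest that 4 against 2 mice can give. The share is on the scale of total counts, where the median of all genes moved by -0.26. It holds almost nothing of the messenger RNAs named above that had too few counts to be tested. On the TMM scale the tested messenger RNAs summed to 201300 ± 24900 CPM at 30 °C and 200000 ± 13800 CPM at 22 °C. The ribosomal RNA mt-Rnr1, which is no messenger RNA, stood at 4288, 4345, 3802 and 3276 CPM at 30 °C and 8956, 9432, 4539.9 and 8163 CPM at 22 °C (log2 fold change 0.98, SE 0.19, adjusted p = 0.001). As with Gm42418, it was highest in 22 °C mice 1, 2 and 4, and with that covariate its adjusted p was 0.092.

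Fat burning and fat storage genes rose beside fat synthesis. In mitochondrial fatty acid oxidation 17 of 22 tested members rose and 1 fell (median log2 fold change 0.67). Acsl5, which activates long chain fatty acids to their CoA esters, stood at 91.6, 80.5, 83.8 and 70.9 CPM at 30 °C and 539, 517, 287 and 382 CPM at 22 °C, the steepest change of this list (log2 fold change 2.4, SE 0.18, adjusted p = 3.6e-06). Cpt2 and Slc25a20, which bring acylcarnitines into the matrix, rose by 1.14 and 0.99. Cpt1a, the carnitine palmitoyltransferase most abundant in liver, was the 1 member that fell, singled out for that. It stood at 20, 19.8, 34 and 37.6 CPM at 30 °C and 12.5, 12.5, 16.4 and 15.7 CPM at 22 °C (log2 fold change -0.96, SE 0.21, adjusted p = 0.0032), and the adjusted p was 0.073 with the Gm42418 covariate. In peroxisomal oxidation 15 of 21 tested members rose and 0 fell (median log2 fold change 0.65). Pex16, which seeds peroxisomal membranes, stood at 36.8, 38.7, 34.1 and 33.5 CPM at 30 °C and 91.5, 77.9, 86.1 and 81.6 CPM at 22 °C (log2 fold change 1.24, SE 0.08, adjusted p = 1.1e-06). Crat, carnitine acetyltransferase, rose from 508 ± 49.7 to 888 ± 49.1 CPM.

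Among genes of the lipid droplet and of triglyceride synthesis 16 of 24 tested members rose and 1 fell (median log2 fold change 0.47), and scaled by total counts 11 rose and 4 fell. Agpat2, which adds the second acyl chain to glycerol phosphate, stood at 199, 434, 319 and 295 CPM at 30 °C and 1768, 1649, 956 and 1099 CPM at 22 °C (log2 fold change 2.13, SE 0.24, adjusted p = 4.8e-05). Gpd1, which supplies the glycerol phosphate, rose from 3074 ± 443 to 5577 ± 939 CPM, and Bscl2, which encodes the droplet assembly protein seipin, from 114 ± 9.92 to 235 ± 12.9 CPM. Mogat1, a monoacylglycerol acyltransferase, stood at 6.17, 2.61, 2.37 and 2.52 CPM at 30 °C and 16.9, 8.29, 19.1 and 13 CPM at 22 °C (log2 fold change 2.08, SE 0.32, adjusted p = 0.00041). Gk, glycerol kinase, which lets brown fat reuse glycerol, stood at 34.7, 85.1, 61.3 and 52.8 CPM at 30 °C and 121, 145, 151 and 108 CPM at 22 °C (log2 fold change 1.17, SE 0.26, adjusted p = 0.0038), with adjusted p = 0.053 without A and B. The droplet coat genes differed among themselves. Cidec rose by 0.88 and Plin1 by 0.37, while Plin5 lay just outside the threshold (0.37, adjusted p = 0.05) and Plin4 did not pass (-0.15, adjusted p = 0.52). Plin1 lost its call under scaling by total counts (adjusted p = 0.24) and with the Gm42418 covariate (adjusted p = 0.053).

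Genes of lipolysis and lipid uptake moved in both directions, and 11 of 21 tested members rose and 5 fell (median log2 fold change 0.26). Mgll, which cleaves monoglycerides, rose by 0.93 (SE 0.1), and Lpl, which frees fatty acids from circulating triglyceride, stood at 4012, 3814, 3544 and 3352 CPM at 30 °C and 5086, 4712, 6231 and 5631 CPM at 22 °C (log2 fold change 0.56, SE 0.12, adjusted p = 0.0017). Gpihbp1, which carries lipoprotein lipase to the capillary lumen, stood at 80.2, 118, 124 and 102 CPM at 30 °C and 52.1, 68.8, 62 and 64.7 CPM at 22 °C and fell (log2 fold change -0.78, SE 0.13, adjusted p = 0.00042). Pnpla2 and Lipe, the lipases of triglyceride and diglyceride, rose by 0.31 and 0.26. Scaled by total counts 6 rose and 6 fell in this list, and with the Gm42418 covariate 7 rose and 4 fell. Its falls numbered 3 without A and B and without either 30 °C mouse 2 or 22 °C mouse 1. The lipases stood, scaled by total counts, at 0.06 and 0.00, neither passing the threshold, and neither passed with the Gm42418 covariate (adjusted p = 0.15 and 0.64). The call of Lipe was also lost under upper-quartile scaling (adjusted p = 0.092), with the muscle marker covariate (0.053), without A and B (adjusted p = 0.28) and without any 1 of 30 °C mouse 2, A or B or 22 °C mouse 1 or 2 (adjusted p = 0.056 to 0.12). Cd36, the fatty acid transporter, did not pass (-0.05, adjusted p = 0.71). Apoc1, an apolipoprotein that inhibits lipoprotein lipase, stood at 193, 187, 178 and 150.0 CPM at 30 °C and 526, 538, 348 and 649 CPM at 22 °C (log2 fold change 1.54, SE 0.15, adjusted p = 1.7e-05). Fabp4, the adipocyte fatty acid binding protein, rose from 5961 ± 180.0 to 9719 ± 290.1 CPM, among the largest gains in CPM. In glycogen metabolism 13 of 23 tested members rose and 2 fell (median log2 fold change 0.46). Gys1, glycogen synthase, rose by 0.55 and Pgm1, which moves phosphate on glucose, by 0.98, and Phka2, a subunit of phosphorylase kinase, by 0.48. With the level of Gm42418 as a covariate 4 rose and 2 fell in that list.

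Most cholesterol synthesis genes rose. There 13 of 23 tested members rose and 3 fell (median log2 fold change 0.65). The falls were fewer in other fits, with 1 fall without 22 °C mouse 3 and 1 without A and B, and with the Gm42418 covariate 8 rose and 0 fell. Pmvk, phosphomevalonate kinase, stood at 27.3, 30.8, 24 and 21.4 CPM at 30 °C and 109.6, 102, 75.4 and 84.3 CPM at 22 °C (log2 fold change 1.84, SE 0.16, adjusted p = 8.6e-06), and Nsdhl, a late sterol demethylation enzyme, rose from 16.5 ± 1.62 to 54.9 ± 13.8 CPM. Lss, lanosterol synthase, and Fdps, farnesyl diphosphate synthase, both rose by 1.34. Hmgcs1, which makes HMG-CoA, stood at 143, 306, 201 and 205 CPM at 30 °C and 363, 295, 188 and 201 CPM at 22 °C and did not pass (adjusted p = 0.35).

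Thermogenic genes that passed the threshold were all higher at 22 °C. In the thermogenic programme list 13 of 29 tested members rose and 0 fell (median log2 fold change 0.41). The share that passed in either direction was 44.8%, beside 44.6% of all tested genes. The share that rose was 44.8%, beside 21.8% of all. Otop1, a proton channel enriched in brown fat, stood at 84.3, 112, 99 and 79.4 CPM at 30 °C and 252, 238, 194 and 231 CPM at 22 °C, with no overlap (log2 fold change 1.29, SE 0.12, adjusted p = 1.2e-05). Letmd1, a mitochondrial protein needed for thermogenesis, rose from 345 ± 45.4 to 677 ± 99.1 CPM and Acot2, a mitochondrial thioesterase, from 19.8 ± 1.61 to 38.5 ± 5.34 CPM. Elovl3, an elongase that marks active brown fat, had the steepest change of the list, with values of 1.46, 3.62, 1.71 and 2.52 CPM at 30 °C and 105, 47.9, 51.8 and 54.3 CPM at 22 °C and a log2 fold change of 4.81. Ucp1 stood at 692, 2048, 1644 and 1492 CPM at 30 °C and 4461, 3775, 1967 and 3288 CPM at 22 °C, and 22 °C mouse 3 lay below the highest 30 °C mouse (log2 fold change 1.2, SE 0.3, adjusted p = 0.0071). Dio2, which activates thyroid hormone inside the cell, stood at 20.8, 65, 24 and 72.5 CPM at 30 °C and 70.6, 115, 114 and 222 CPM at 22 °C, with overlapping groups (log2 fold change 1.52, SE 0.5, adjusted p = 0.03). Adrb3, the beta-3 adrenergic receptor of adipocytes, stood at 282, 276, 218 and 137 CPM at 30 °C and 530.0, 368, 595 and 288 CPM at 22 °C (log2 fold change 0.97, SE 0.26, adjusted p = 0.011). When A and B were left out, none of these 3 passed, at adjusted p = 0.061 for Ucp1, 0.098 for Dio2 and 0.097 for Adrb3, and in the whole list 8 rose and 0 fell. With the Gm42418 covariate 8 rose and 0 fell in the list. Under it Ucp1 had adjusted p = 0.14 and Adrb3 0.079, and Dio2 a log2 fold change of 2.83. Dio2 was also lost without 30 °C mouse 1 (adjusted p = 0.063), without A (0.072) and without 22 °C mouse 4 (0.087), and under scaling by total counts (0.059).

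Ppargc1a, the coactivator of mitochondrial biogenesis, stood at 29.1, 52.7, 34.4 and 37.7 CPM at 30 °C and 33.4, 38.2, 62.2 and 51.2 CPM at 22 °C and did not pass (log2 fold change 0.27, SE 0.23, adjusted p = 0.36). Prdm16, a brown adipocyte identity factor, stood at 29, 31.1, 27.4 and 27.9 CPM at 30 °C and 39, 39.6, 24.8 and 50.8 CPM at 22 °C (log2 fold change 0.41, SE 0.22, adjusted p = 0.16), and without 22 °C mouse 3 it was 0.57 and passed (adjusted p = 0.034). Of the brown adipocyte markers 6 of 12 tested members rose and 1 fell (median log2 fold change 0.38), and of the pan-adipocyte markers 7 of 12 tested members rose and 1 fell (median log2 fold change 0.29). The rises among pan-adipocyte markers numbered 4 both under scaling by total counts and with the Gm42418 covariate, and those among brown adipocyte markers 3 without A and B. Cidea, a droplet protein of brown fat, rose by 0.58 and Cox7a1 and Cox8b, the heart and brown fat forms of 2 oxidase subunits, by 0.67 and 0.66. With the Gm42418 covariate all 3 missed the threshold, at adjusted p of 0.063 to 0.071, and 1 rose and 1 fell in the list. The part of this covariate in the result was not tested further. Fabp3, a fatty acid binding protein of thermogenic fat, stood at 128, 214, 198 and 130.1 CPM at 30 °C and 104, 95, 70.3 and 88.2 CPM at 22 °C and fell (log2 fold change -0.91, SE 0.18, adjusted p = 0.0017). Aqp7, the glycerol channel of adipocytes, was the pan-adipocyte marker that fell, by 0.52 (adjusted p = 0.0003). Adipoq, which encodes adiponectin, stood at 1214, 1054, 1048 and 957 CPM at 30 °C and 1009, 1058, 1238 and 1093 CPM at 22 °C and did not pass (log2 fold change 0.04, adjusted p = 0.77).

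In the signalling lists the share that passed in either direction was near the 44.6% of all tested genes. It was 51.9% for beta-adrenergic and cAMP signalling and 46.7% for insulin and mTOR signalling. The shares that rose were 37% and 40%, beside 21.8% of all, and those that fell 14.8% and 6.7%, beside 22.8%. In beta-adrenergic and cAMP signalling 10 of 27 tested members rose and 4 fell (median log2 fold change 0.19). Adcy10, the soluble adenylyl cyclase that answers to bicarbonate, stood at 0.915, 0.322, 0.18 and 0.41 CPM at 30 °C and 10.7, 7.16, 4.04 and 4.35 CPM at 22 °C, the steepest change of the list (log2 fold change 3.81, SE 0.44, adjusted p = 7.9e-05), or 4.4 without 30 °C mouse 1. Adra1a, an alpha-1 adrenergic receptor, rose by 0.7 and Adcy3, a membrane adenylyl cyclase, by 0.63, while Gnai2, an inhibitory G protein subunit also abundant in immune cells, fell by 0.84. Adcy6, the most abundant member that did not pass, stood at -0.14 (adjusted p = 0.23). In insulin and mTOR signalling 12 of 30 tested members rose and 2 fell (median log2 fold change 0.23). Insr, the insulin receptor, stood at 105, 99.8, 87.5 and 82.4 CPM at 30 °C and 150.1, 133, 141 and 149.8 CPM at 22 °C (log2 fold change 0.62, SE 0.08, adjusted p = 0.00012), and Mtor, the kinase itself, rose by 0.81. Eif4ebp1, a repressor of translation that mTOR switches off, rose from 107 ± 12 to 210.3 ± 16.2 CPM. Pik3r1, the regulatory subunit of phosphoinositide 3-kinase, stood at 182, 180.0, 219 and 87.8 CPM at 30 °C and 203, 413, 588 and 191 CPM at 22 °C with overlapping groups (adjusted p = 0.062). Scaled by total counts 7 rose and 10 fell in the first list and 5 rose and 7 fell in the second, and both medians were below 0. Without A and B 6 and 7 members rose in the first and second list, and 4 members fell in the second without 22 °C mouse 4, and with the Gm42418 covariate 5 rose and 2 fell in the first.

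Some of the genes with the largest rises by the naming rule belong to none of these pathways. Aspg, an asparaginase and lysophospholipase homolog, stood at 18.3, 15.1, 18.5 and 10.7 CPM at 30 °C and 290.1, 169, 107 and 236 CPM at 22 °C (log2 fold change 3.68, SE 0.3, adjusted p = 1.3e-05), and with the Gm42418 covariate its log2 fold change was 3.01. Rims4, a member of the RIM family of presynaptic proteins, stood at 1.97, 1.09, 0.479 and 0.788 CPM at 30 °C and 22.8, 11.6, 11.9 and 8.75 CPM at 22 °C (log2 fold change 3.68, SE 0.46, adjusted p = 0.00013). Tfr2, the second transferrin receptor, stood at 2.1, 2.17, 0.959 and 1.01 CPM at 30 °C and 21.9, 6.32, 17.5 and 10.6 CPM at 22 °C (log2 fold change 3.2, SE 0.42, adjusted p = 0.00016). H2-Q10, a secreted class I histocompatibility gene best known from liver, stood at 29.2, 37.6, 30.7 and 35.6 CPM at 30 °C and 255, 234, 202 and 201 CPM at 22 °C, with little spread within a group (log2 fold change 2.74, SE 0.14, adjusted p = 2e-07). Class I genes are near-identical copies of one another, so its reads could have been split with those of its relatives. Fcor, which encodes a corepressor of FoxO1 and is named for its difference between the temperature steps, given further on, stood at 10.2, 8.68, 9.08 and 9.61 CPM at 30 °C and 35.5, 36.9, 36.4 and 37.8 CPM at 22 °C, and the mice of each group lay close together (log2 fold change 1.96, SE 0.08, adjusted p = 6e-08).

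Genes of amino acid breakdown mostly rose, and the serine, folate and ATF4 target genes mostly fell. In amino acid breakdown 19 of 28 tested members rose and 3 fell (median log2 fold change 0.43). There 12 rose and 6 fell when scaled by total counts, and 11 rose and 3 fell with the Gm42418 covariate. Mccc1 and Mccc2, the subunits of the carboxylase of leucine breakdown, rose by 1.08 and 0.82. In the serine, folate and ATF4 list 3 of 25 tested members rose and 13 fell (median log2 fold change -0.45). Gdf15, a secreted stress cytokine, stood at 1.22, 2.29, 3.45 and 4.66 CPM at 30 °C and 0.495, 0.119, 0.0472 and 0.132 CPM at 22 °C (log2 fold change -4.18, SE 0.68, adjusted p = 0.00047). Without A and B its log2 fold change was -3.45, without 22 °C mouse 3 it was -3.53 and without 22 °C mouse 1 it was -5.15. Aldh18a1, an enzyme of proline synthesis, fell by 1.09. Against the trend of the list, Psph, the last enzyme of serine synthesis, stood at 18.1, 15.3, 15.6 and 13.3 CPM at 30 °C and 39.7, 41.1, 30.7 and 34.9 CPM at 22 °C (log2 fold change 1.23, SE 0.11, adjusted p = 1.2e-05), and Asns, asparagine synthetase, rose by 0.61. Slc3a2, the heavy chain of several amino acid transporters, did not pass (-0.31, adjusted p = 0.21). When A and B were left out, 2 rose and 8 fell in this list.

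Of the endoplasmic reticulum chaperones 1 of 22 tested members rose and 4 fell (median log2 fold change -0.07). The shares were 4.5% and 18.2%, beside 21.8% and 22.8% of all tested genes. In this list 14 fell when scaled by total counts, and 1 fell without A and B or with the Gm42418 covariate. Hspa5, the abundant chaperone BiP, stood at 370.5, 372, 353 and 352 CPM at 30 °C and 341, 352, 358 and 321 CPM at 22 °C and did not pass (adjusted p = 0.55). Dnajb9, a cochaperone of BiP, rose by 0.73, while Sdf2l1, a stress-induced partner of that complex, fell by 1.18, P4hb, protein disulfide isomerase, by 0.47 and Ern1, the sensor IRE1, by 0.47. Without A and B, Dnajb9, Sdf2l1 and P4hb did not pass (Sdf2l1 at a log2 fold change of -0.57), with adjusted p of 0.058, 0.13 and 0.16, and with the Gm42418 covariate neither P4hb nor Ern1 did (0.16 and 0.17). Of the heat shock and cold-shock proteins 5 of 19 tested members rose and 2 fell (median log2 fold change 0.06), a median that was -0.20 when scaled by total counts, where 4 rose and 4 fell. Of these proteins 3 rose and 1 fell with the Gm42418 covariate. Hspe1 and Hspd1, the paired chaperonins of mitochondria, rose by 1.06 and 0.68, and the small heat shock protein Hspb8 rose from 30.9 ± 13.3 to 73.9 ± 11.2 CPM. Rbm3, an RNA-binding protein induced by low temperature in cultured cells, stood at 25.1, 25.6, 24.5 and 28.9 CPM at 30 °C and 13.7, 14.8, 20.4 and 17.3 CPM at 22 °C and was lower at 22 °C (log2 fold change -0.65, SE 0.14, adjusted p = 0.0024), with adjusted p = 0.099 with the Gm42418 covariate. In the circadian clock list 5 of 19 tested members rose and 0 fell (median log2 fold change 0.41). The share that rose was 26.3%, near the 21.8% of all tested genes. The share that passed in either direction was also 26.3%, below the 44.6% of all. No member passed in either direction without A and B or with the Gm42418 covariate. With 1 mouse left out the rises numbered 2 without B, 3 without 30 °C mouse 2, A or 22 °C mouse 4, and 8 without 22 °C mouse 3. Scaled by total counts 2 rose and 3 fell in the clock list, and under upper-quartile scaling 3 rose and 0 fell. Bhlhe40, a repressor of the clock, stood at 57.8, 21.7, 30.1 and 24.8 CPM at 30 °C and 102, 81.5, 87.5 and 83.4 CPM at 22 °C (log2 fold change 1.4, SE 0.31, adjusted p = 0.0035), with adjusted p = 0.058 without A and B and 0.075 with the Gm42418 covariate. Per3 and Nr1d2 rose by 0.86 and 0.68 in the full comparison. Their adjusted p with the Gm42418 covariate was 0.1 and 0.21, and without A and B 0.07 and 0.15. Nr1d2 missed the threshold also without any 1 of 30 °C mouse 2, A or B or 22 °C mouse 4 (adjusted p = 0.052 to 0.062) and under scaling by total counts (0.1).

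Secreted factors and white fat genes gave no common direction. Of the secreted factors of fat 6 of 26 tested members rose and 7 fell (median log2 fold change -0.10), and scaled by total counts 3 rose and 9 fell. In the main fit these shares, 23.1% and 26.9%, were near the 21.8% and 22.8% of all tested genes. Nampt, an enzyme of NAD synthesis that is also secreted, stood at 294, 285, 281 and 209.5 CPM at 30 °C and 434, 562, 483 and 517 CPM at 22 °C (log2 fold change 0.9, SE 0.11, adjusted p = 7.4e-05), and Rbp4, the retinol carrier, at 38.2, 28.6, 20.7 and 22.9 CPM at 30 °C and 128, 70.3, 96 and 74.2 CPM at 22 °C (log2 fold change 1.74, SE 0.22, adjusted p = 0.00012). Ccl2, a chemokine that attracts monocytes, fell from 4.22 ± 1.58 to 0.453 ± 0.0799 CPM (log2 fold change -3.23). Lep, which encodes leptin, stood at 100.4, 101, 77.1 and 92.8 CPM at 30 °C and 89.7, 65.5, 86.3 and 55.3 CPM at 22 °C, with overlapping groups (adjusted p = 0.7). Of the white fat enriched genes 1 of 13 tested members rose and 4 fell (7.7% and 30.8%, median log2 fold change -0.34), and 2 fell with the Gm42418 covariate. Nnat, an imprinted gene of the endoplasmic reticulum membrane, stood at 101, 157, 162 and 221 CPM at 30 °C and 17.2, 8.47, 25.9 and 38.1 CPM at 22 °C, with no overlap (log2 fold change -2.83, SE 0.42, adjusted p = 0.00042), and the imprinted gene Mest fell by 1.97. Hoxc8, a homeobox gene of white fat depots, rose by 1.00. Car3, the abundant carbonic anhydrase of fat, stood at 7618, 5646, 5482 and 4786 CPM at 30 °C and 6557, 6911, 10642 and 6522 CPM at 22 °C, where 22 °C mouse 3 was the highest and the groups overlapped (adjusted p = 0.12). Without 30 °C mouse 1, Car3 passed (log2 fold change 0.53, adjusted p = 0.034).

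**Figure D3:**
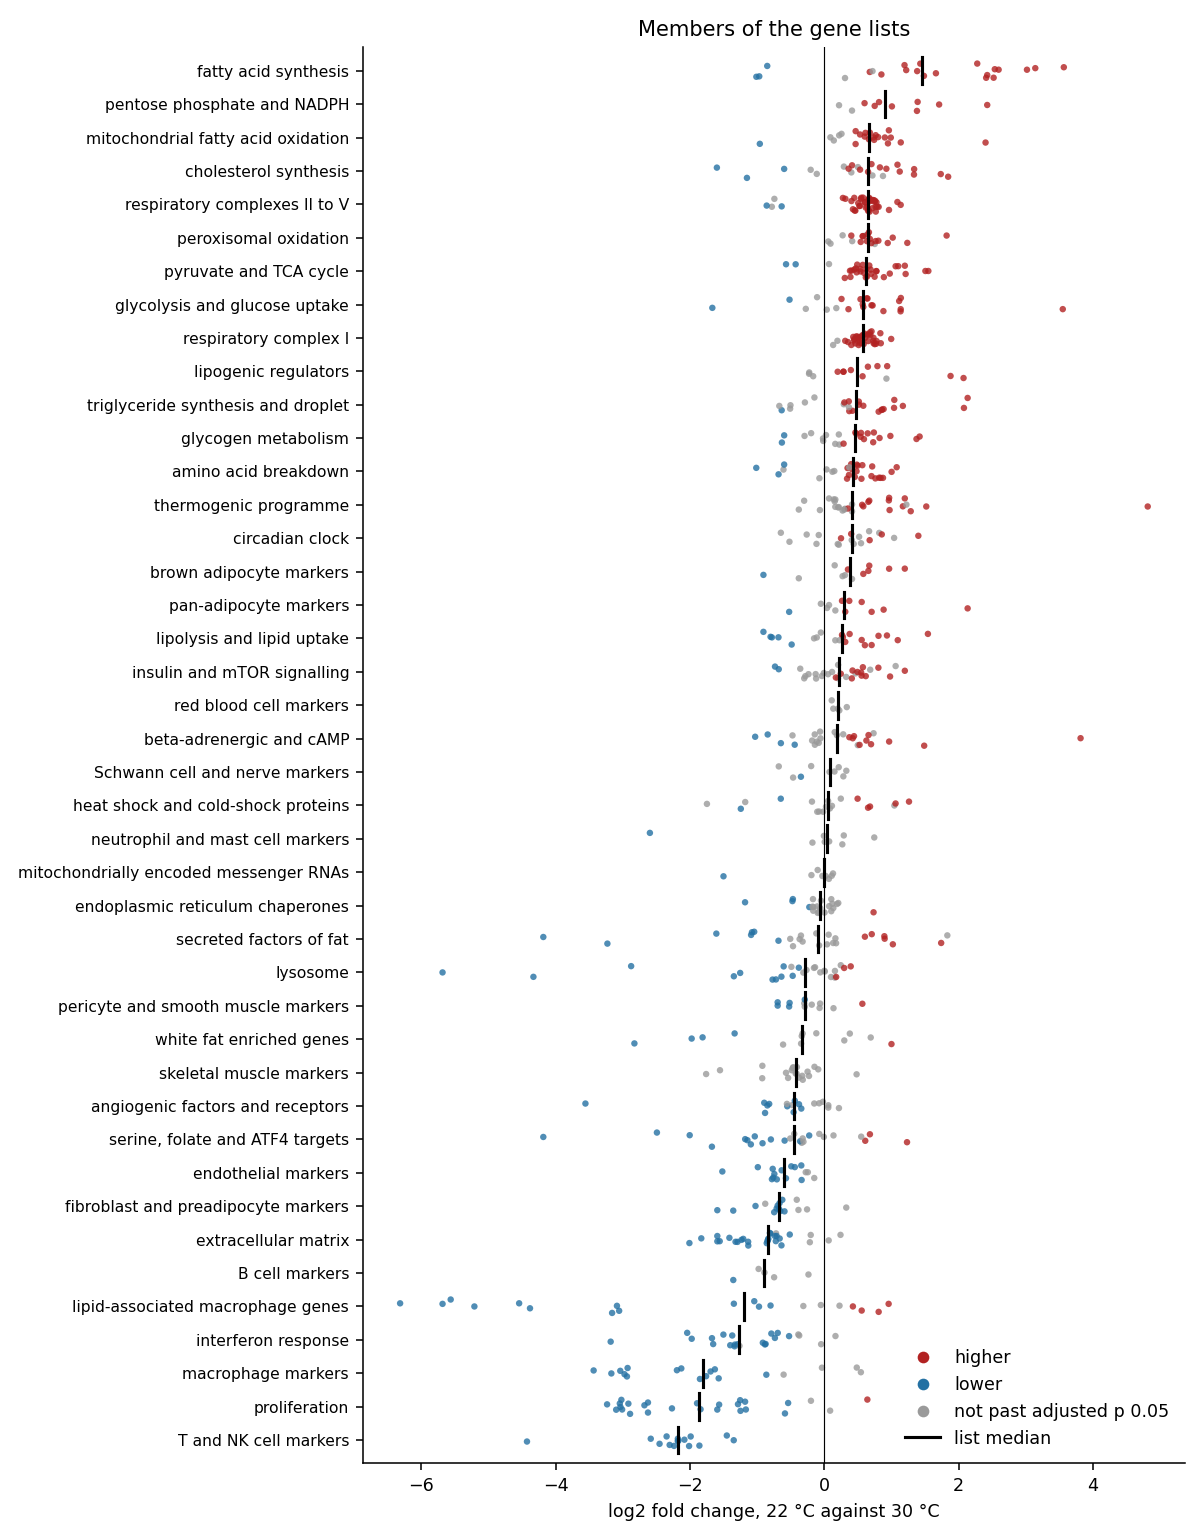
Each row is 1 of the 42 gene lists, ordered by its median, and each point is the log2 fold change of 1 tested member at 22 °C against 30 °C. Red and blue points passed an adjusted p under 0.05 and black ticks are list medians. Medians run from -2.18 in T and NK cell markers to 1.46 in fatty acid synthesis, and the respiratory lists are narrow clusters right of 0.

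Macrophage genes fell steeply. Of the macrophage markers 0 of 18 tested members rose and 14 fell (median log2 fold change -1.80), and of the lipid-associated macrophage genes 4 of 20 tested members rose and 13 fell (median log2 fold change -1.19). The summed macrophage markers stood at 860.5, 852.9, 1956 and 2313 CPM at 30 °C and 379.1, 279.5, 378.3 and 342.7 CPM at 22 °C. Every 22 °C mouse lay below every 30 °C mouse, and A and B had more than 2 times the sum of 30 °C mice 1 and 2. Adgre1, which encodes the macrophage antigen F4/80, stood at 28.7, 26.9, 68.1 and 97.2 CPM at 30 °C and 7.97, 5.72, 6.83 and 6.38 CPM at 22 °C (log2 fold change -3.04, SE 0.45, adjusted p = 0.00041). C1qa, a complement subunit made by resident macrophages, and Mrc1, the mannose receptor, fell by 1.57 and 1.63. Gpnmb, a glycoprotein of lipid-laden macrophages, stood at 17.8, 53.2, 236 and 193 CPM at 30 °C and 8.21, 3.76, 4.73 and 4.88 CPM at 22 °C (log2 fold change -4.54, SE 0.81, adjusted p = 0.0014). Lgals3, galectin-3, stood at 27.6, 49, 237 and 180.1 CPM at 30 °C and 8.71, 3.94, 6.74 and 4.09 CPM at 22 °C (log2 fold change -4.38, SE 0.73, adjusted p = 0.00098). Atp6v0d2, a macrophage and osteoclast subunit of the lysosomal proton pump, stood at 3.08, 6.79, 33 and 34.3 CPM at 30 °C and 0.742, 0.417, 0.33 and 0.088 CPM at 22 °C (log2 fold change -5.68, SE 0.89, adjusted p = 0.00059). Adam8, a surface protease of myeloid cells, fell by 4.78, Itgax, the integrin CD11c, by 3.16, and Mmp12, the macrophage elastase, by 6.31. Trem2 and Spp1, a lipid receptor and osteopontin, fell by 5.21 and 5.56.

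These falls were smaller without A and B, and none changed direction. When A and B were left out, the log2 fold changes were -2.05 for Adgre1, -2.73 for Gpnmb, -2.69 for Lgals3, -3.7 for Atp6v0d2, -2.88 for Adam8, -2.39 for Itgax, -3.14 for Trem2 and -2.61 for Spp1, all still past the threshold. Without A alone Adam8 stood at -4.1 and Spp1 at -4.86, and without 22 °C mouse 1 Trem2 stood at -5.8. In the macrophage markers 0 rose and 14 fell without both libraries. The 4 lipid-associated genes that rose were Acp5, Plin2, Lpl and Lgals1, of which adipocytes are known to express Lpl and Plin2. Acp5, the tartrate-resistant phosphatase, had the smallest p among them, at 154, 101, 123 and 117 CPM at 30 °C and 241, 194, 289 and 237 CPM at 22 °C (log2 fold change 0.96, SE 0.13, adjusted p = 0.00012). In the lysosome list 3 of 26 tested members rose and 11 fell (median log2 fold change -0.29), and without A and B 4 rose and 6 fell. In that list 1 rose and 6 fell with the Gm42418 covariate, and scaled by total counts 0 rose and 17 fell. The rises there numbered 1 without 30 °C mouse 2 or 22 °C mouse 2. Ctss, a cathepsin of antigen-presenting cells, stood at 50.3, 74.7, 286 and 303 CPM at 30 °C and 11.5, 7.22, 8.94 and 7.83 CPM at 22 °C (log2 fold change -4.33, SE 0.65, adjusted p = 0.00053), and at -2.82 without A and B. Ctsk, a collagen-degrading cathepsin, fell by 1.35.

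T and NK cell genes were scarce at both temperatures and scarcer at 22 °C. Of the T and NK cell markers 0 of 15 tested members rose and 15 fell (median log2 fold change -2.18), and their sum stood at 22.12, 17.93, 39.14 and 35.32 CPM at 30 °C and 5.443, 4.234, 6.792 and 5.322 CPM at 22 °C. Cd3g, a chain of the T cell receptor complex, stood at 1.52, 0.804, 1.53 and 0.882 CPM at 30 °C and 0.247, 0.119, 0.212 and 0.264 CPM at 22 °C (log2 fold change -2.45, SE 0.38, adjusted p = 0.00028). Lck, the kinase of T cell receptor signalling, and Gzma, a granzyme of cytotoxic cells, fell by 2.17 and 2.35. Without A and B the log2 fold change of Gzma was -1.58. Cd2, a T and NK cell adhesion molecule, fell from 1.59 ± 0.18 to 0.325 ± 0.134 CPM. At 6 °C Cd3g and Cd2 stood at 0.18 and 0.407 CPM. Genes this scarce can pass the low count filter through their 30 °C libraries alone. The number of falls among the tested T and NK cell markers, and their median, are thus partly fixed by the filter. Of the B cell markers 0 of 5 tested members rose and 1 fell (20%, beside 22.8% of all tested genes, median log2 fold change -0.89). That member was Cd79b, a part of the B cell receptor (log2 fold change -1.35, adjusted p = 0.024), whose call was lost without A and B (adjusted p = 0.14), without B alone (0.077) and without 22 °C mouse 3 (0.075) or 4 (0.068), and with the Gm42418 covariate (0.053). Ighm, the immunoglobulin heavy chain, did not pass (-0.75, adjusted p = 0.12). Of the neutrophil and mast cell markers 0 of 8 tested members rose and 1 fell (median log2 fold change 0.04), and this was Csf3r, the receptor of a granulocyte growth factor (-2.6, or -1.51 without A and B). In the interferon response 0 of 23 tested members rose and 18 fell (median log2 fold change -1.26). Bst2, an antiviral membrane protein, stood at 54.4, 57.6, 76.8 and 74.7 CPM at 30 °C and 19.8, 28, 24.3 and 27.9 CPM at 22 °C (log2 fold change -1.4, SE 0.24, adjusted p = 0.00074), and the signalling genes Irf9 and Stat2 fell by 0.79 and 0.88. The summed interferon list was highest in A and B, the libraries richest in macrophage markers, at 681, 593.4, 832.2 and 829.3 CPM at 30 °C and 473.6, 482.4, 468.9 and 497.6 CPM at 22 °C, and without A and B 0 rose and 13 fell.

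**Figure D4:**
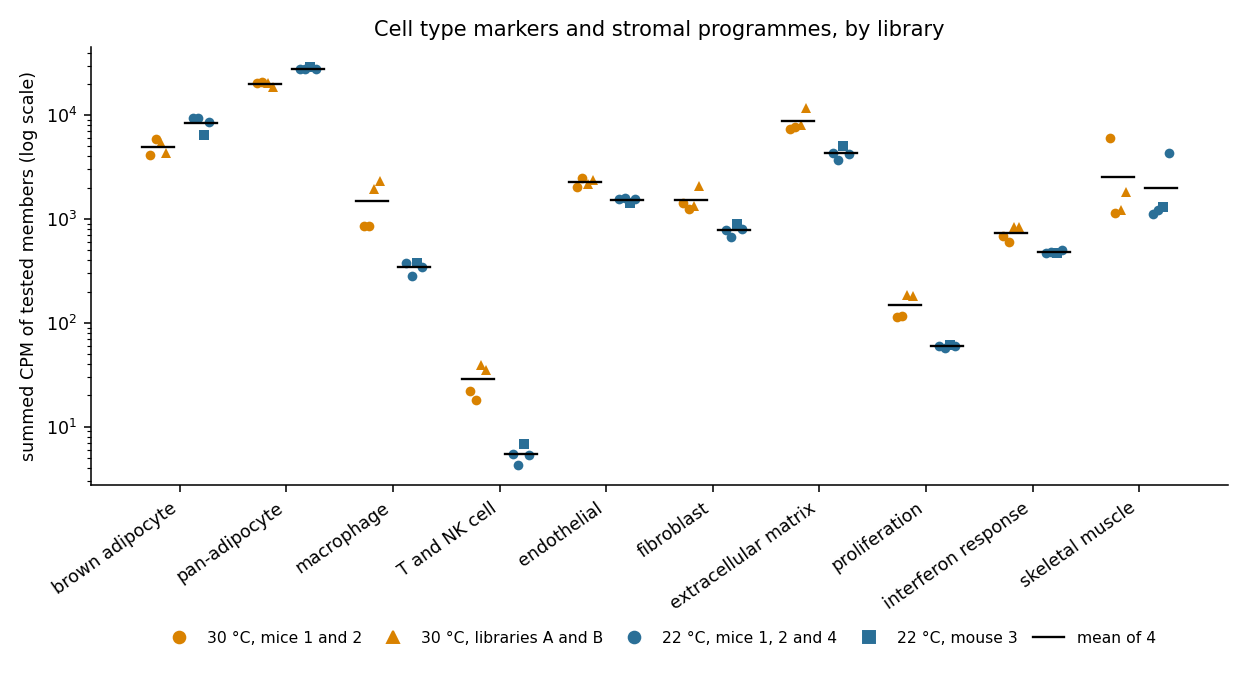
Summed CPM of the tested members of 10 lists, by library, on a log axis, with bars at the mean of 4. Macrophage sums run from 852.9 to 2313 at 30 °C and from 279.5 to 379.1 at 22 °C, highest in the libraries A and B, while skeletal muscle sums are high in 1 mouse of each group.

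Most transcripts of the cell division and extracellular matrix lists were also lower at 22 °C. In the proliferation list 1 of 26 tested members rose and 23 fell (median log2 fold change -1.87). Top2a, a topoisomerase of dividing cells, stood at 8.17, 9.12, 16.2 and 18.6 CPM at 30 °C and 1.48, 1.31, 1.44 and 1.85 CPM at 22 °C (log2 fold change -3.1, SE 0.34, adjusted p = 4.1e-05), or -2.51 without A and B. Ccna2, cyclin A2, and Kif11, a spindle motor, fell by 2.92 and 2.62. Ccnd1, cyclin D1 of the G1 phase, stood at 29, 38.2, 36.3 and 30.8 CPM at 30 °C and 11.1, 8.83, 7.94 and 7.61 CPM at 22 °C, with mice A and B inside the range of 30 °C mice 1 and 2 (log2 fold change -1.93, SE 0.14, adjusted p = 3.2e-06). In the extracellular matrix list 0 of 29 tested members rose and 24 fell (median log2 fold change -0.84), and 15 fell with the Gm42418 covariate. Col3a1, a fibrillar collagen, stood at 1386, 1354, 1494 and 2631 CPM at 30 °C and 635, 436, 681 and 526 CPM at 22 °C, with B well above the others (log2 fold change -1.59, SE 0.22, adjusted p = 0.00014). Col6a1 and Col6a3, chains of a beaded-filament collagen, fell by 1.23 and 1.21. Sparc, a collagen-binding matrix protein, and Col4a1, a basement membrane collagen, were among the largest losses in CPM, at 1478 ± 282 to 887 ± 75.5 CPM and 1086 ± 168 to 623 ± 91.3 CPM. Fras1, an extracellular matrix protein of basement membranes, stood at 6.67, 15.1, 11.9 and 9.2 CPM at 30 °C and 0.148, 0.894, 0.153 and 0.484 CPM at 22 °C, with no overlap (log2 fold change -4.91, SE 0.49, adjusted p = 2.5e-05), or -5.5 without 22 °C mouse 2.

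Most endothelial and fibroblast markers fell as well. Of the endothelial markers 0 of 16 tested members rose and 13 fell (median log2 fold change -0.60). Cdh5, the cadherin of endothelial junctions, stood at 316, 399, 364 and 386 CPM at 30 °C and 227, 227, 212 and 209 CPM at 22 °C (log2 fold change -0.74, SE 0.08, adjusted p = 2.9e-05). Pecam1, CD31, fell by 0.57 and Egfl7, a factor secreted by endothelium, by 0.99, while Flt1, a VEGF receptor, did not pass (-0.15, adjusted p = 0.3). Of the angiogenic factors and receptors 0 of 18 tested members rose and 10 fell (median log2 fold change -0.45), and 5 fell with the Gm42418 covariate. Pgf, placental growth factor, stood at 2.85, 5.14, 3.75 and 5.01 CPM at 30 °C and 0.346, 0.358, 0.377 and 0.308 CPM at 22 °C (log2 fold change -3.55, SE 0.43, adjusted p = 6e-05). Nrp2, a VEGF coreceptor, fell by 0.55 and Dll4, a Notch ligand of tip cells, by 0.89. Vegfa, the main growth factor of vessels, stood at 689, 764, 685 and 619 CPM at 30 °C and 610.4, 739, 557 and 709 CPM at 22 °C, with overlapping groups (adjusted p = 0.71). Of the pericyte and smooth muscle markers 1 of 12 tested members rose and 5 fell (median log2 fold change -0.29). In that list 8 fell when scaled by total counts, and 3 with the Gm42418 covariate or without 30 °C mouse 2. Notch3 and Pdgfrb, receptors of mural cells, both fell by 0.69, Rgs5 fell by 0.52, and the proteoglycan Cspg4 rose by 0.57. Of the fibroblast and preadipocyte markers 0 of 16 tested members rose and 11 fell (median log2 fold change -0.67), and 5 fell with the Gm42418 covariate. Cd34, a surface protein of progenitors and endothelium, stood at 82.3, 86.6, 84.1 and 131 CPM at 30 °C and 42.1, 33.8, 37.1 and 37.3 CPM at 22 °C (log2 fold change -1.35, SE 0.14, adjusted p = 2.3e-05), and Dcn, decorin, and Fbln2, fibulin-2, fell by 0.75 and 0.59.

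In the other tissue lists few members passed. Of the skeletal muscle markers 0 of 20 tested members rose and 0 fell (median log2 fold change -0.42), and Myh4, a fast muscle myosin, stood at 1173, 220.0, 192 and 347 CPM at 30 °C and 242, 211, 277 and 1016 CPM at 22 °C, high in 1 mouse of each group. Of the Schwann cell and nerve markers 0 of 9 tested members rose and 1 fell (median log2 fold change 0.08), and of the red blood cell markers 0 of 5 tested members rose and 0 fell (median log2 fold change 0.20). The medians of these last 2 lists and of the neutrophil and mast cell markers were below 0 when scaled by total counts, at -0.17, -0.05 and -0.22, and the median of the muscle markers was 0.41 without 30 °C mouse 1. With the muscle marker level as a covariate 3151 genes were higher and 3347 lower, close to the counts without it.

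Some falls lay outside these cell type lists. Tusc3, a subunit of the oligosaccharyltransferase that was named after its values were seen, stood at 130.4, 165, 160.4 and 129 CPM at 30 °C and 13, 23, 18.2 and 17.5 CPM at 22 °C, an about 8.16-fold lower mean at 22 °C (log2 fold change -3.03, SE 0.15, adjusted p = 2e-07). Impdh1, an enzyme of guanine nucleotide synthesis, stood at 777, 814, 807 and 640.2 CPM at 30 °C and 210.0, 415, 192 and 294 CPM at 22 °C, with no overlap (log2 fold change -1.45, SE 0.2, adjusted p = 0.00017). Apoe, the lipoprotein that macrophages and adipocytes both make, stood at 1955, 2144, 2420.5 and 2524 CPM at 30 °C and 1023, 1617, 1084 and 1472 CPM at 22 °C (log2 fold change -0.8, SE 0.17, adjusted p = 0.0018), and Gpx3, a secreted glutathione peroxidase, fell from 3817 ± 413 to 2705 ± 622 CPM.

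The step from 30 to 22 °C was set against the step from 22 to 6 °C by testing the difference of their log2 fold changes, (6 against 22 °C) minus (22 against 30 °C). This difference passed for 4353 genes (29.3%) by edgeR's quasi-likelihood test. The 22 °C libraries enter both steps, with opposite signs, so an error in them moves both. Fcor rose from 9.38 ± 0.644 to 36.7 ± 0.936 CPM and stood at 21 ± 2 CPM at 6 °C (difference of the steps -2.77, adjusted p = 3.3e-07). Gstz1, an enzyme of tyrosine breakdown, went from 204 ± 26.6 to 431 ± 36.2 CPM and back to 208 ± 13.9 CPM at 6 °C (difference -2.14, adjusted p = 2.3e-05). Acaa1a, the thiolase of peroxisomes, Lgals12, a lipid droplet galectin, Swi5, a DNA repair protein, and Eif4ebp1 also had their highest mean at 22 °C, with differences of -1.49, -1.53, -1.62 and -1.7. In the other direction, Ccnd1 stood at 37.6 ± 4.59 CPM at 6 °C (difference 4.02, adjusted p = 4.5e-06). Sept11, a septin, Rapgef5, an exchange factor of Rap proteins, and Slc43a2, an amino acid transporter, likewise had their lowest mean at 22 °C, with differences of 1.62, 1.5 and 2.8. Bsg, the chaperone of monocarboxylate transporters, differed in another way. It rose slightly to 22 °C (0.29, a call lost without A and B, under scaling by total counts and with the Gm42418 covariate) and stood at 1400.1 ± 85.9 CPM at 6 °C (difference 1.35). Mmp12 was lowest at 22 °C, with a difference of 11.24 (adjusted p = 2.3e-05).

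**Figure D5:**
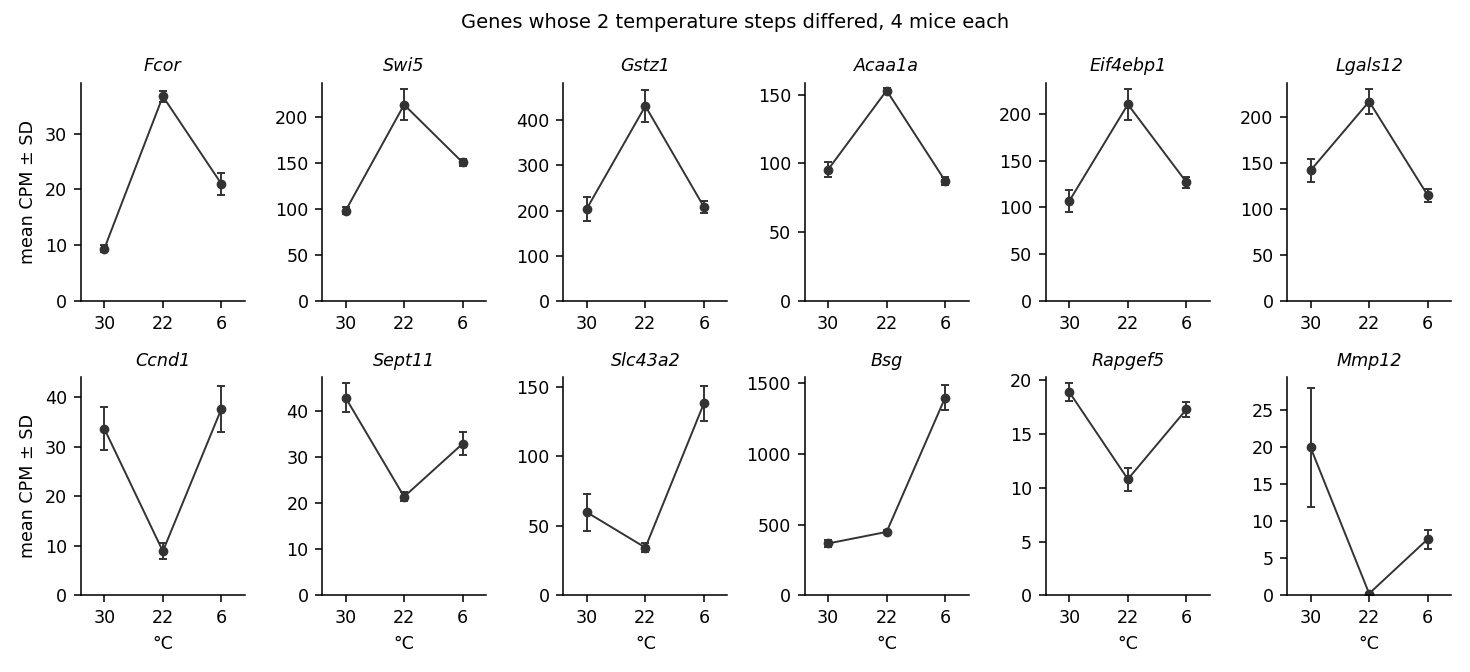
Mean CPM with SD over 4 mice at 30, 22 and 6 °C for 12 genes, the 6 with the smallest p for the difference of the steps in each direction among genes of at least 5 CPM that passed the threshold at 22 °C against 30 °C, each panel with its own axis from 0. The 6 genes of the upper row peak at 22 °C, and those of the lower row, apart from Bsg, are lowest there.

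Mice of a group lay close together for most genes. Exons of Fdps, Mpc1, Ccnd1, Mest, Adrb3 and Adcy3 overlap those of other genes for 22.1% to 26.7% of their length, and reads from such overlaps cannot be told apart. Over the 10256 genes whose mean level reached 5 CPM, the median SD of log2 CPM was 0.15 at 30 °C and 0.148 at 22 °C. The SD exceeded 1 for 147 of these genes at 30 °C and for 83 at 22 °C.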

How the data were processed

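The deposited table holds whole-number read counts per gene, 1 column a library, made by the authors with FastQC 0.10.1, STAR 2.4.2a and edgeR 3.14.0 on GRCm38 (mm10), per the submitters' processing notes. For the counting tool, the annotation release and strandedness, nothing is stated in the sources used. Value columns not used numbered 0. Identifiers matched GENCODE M21 in 96.6% of 38924 cases, and 27 symbols written as dates were restored.

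Counts of all 12 libraries were scaled by TMM, filtered by filterByExpr and fitted with edgeR 4.0.16 (robust quasi-likelihood, no covariate, R 4.3.3), with Benjamini-Hochberg adjustment over 14870 genes. All adjusted p-values are from this test unless another is named. The code was tested on simulated data. CPM in the text are counts scaled to a common TMM effective library size, and shares in percent are of the total counts. Nothing else than the mouse numbers says that the mice are independent, so p-values measure the spread between these libraries. Members, the 42 gene lists and the tests were chosen with earlier results of these data known. Genes named were drawn from a pool set by a rule, and not every gene of the pool is named. The pool held the 12 largest changes each way and the 6 largest gains and losses. These were taken at a mean of at least 5 CPM without overlap of the groups. To them were added up to 4 called members of each list with the smallest p and each list's most abundant uncalled member. A panel of 24 known genes was also in the pool. Last came, among called genes of at least 5 CPM, the 6 smallest p each way for the difference of the steps. Genes outside this rule are marked. Alternatives were other scalings, filters and thresholds, limma 3.58.1, DESeq2 1.42.0, left-out and thinned libraries, a replicate block and covariates, of which the Gm42418 covariate was chosen after seeing the data.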

Additional observations from a re-analysis of the deposited data

Results flagged for a closer look

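In 36 of 468 sets of 4 mice (7.69%) 1 mouse lay apart, its gap to the nearest mouse in relation to the range of the group exceeding Dixon's critical value for 4 samples. Chance gives this in about 1 in 20 groups. The values below are CPM unless counts are named. 22 °C mouse 1 had a level of 1151 for Elovl6, 105 for Elovl3, 1.43 for Trem2 and 196 for Lgals12 apart from its group. The summed level of a list in 22 °C mouse 1 stood apart at 2613 for heat shock and cold-shock proteins and 66.9 for neutrophil and mast cell markers. 22 °C mouse 2 had a level of 48685 for Scd1 and 0.417 for Lck apart from its group. 22 °C mouse 3 had a level of 321 for Cox7a1, 68.2 for Dnajb9, 89.4 for Hspe1, 10642 for Car3 and 1.32 for Kif11 apart from its group. The summed level of a list in 22 °C mouse 3 stood apart at 10280.0 for thermogenic programme, 11010.0 for white fat enriched genes, 2275 for angiogenic factors and receptors and 36.45 for B cell markers. 22 °C mouse 4 had a level of 1016 for Myh4 apart from its group. The summed level of a list in 22 °C mouse 4 stood apart at 4301 for skeletal muscle markers. 30 °C mouse 1 had a level of 189 for Elovl6, 5.79 for Slc2a5, 6.17 for Mogat1 and 1173 for Myh4 apart from its group. The summed level of a list in 30 °C mouse 1 stood apart at 6001 for skeletal muscle markers. The summed level of a list in 30 °C mouse 2 stood apart at 855.9 for cholesterol synthesis. 30 °C mouse A had a level of 365 for Pfkfb3 apart from its group. 30 °C mouse B had a level of 341 for Uqcrq, 91.8 for Ndufc1, 209.5 for Nampt, 2631 for Col3a1, 131 for Cd34 and 70 for Fbln2 apart from its group. The summed level of a list in 30 °C mouse B stood apart at 8281 for respiratory complex I, 20290.0 for respiratory complexes II to V and 11810.0 for extracellular matrix. Total counts were 86438386 in 22 °C mouse 3.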

How the results depend on the processing

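The counts of genes higher, lower and with a difference of the steps were 3248, 3386 and 4353. They stayed within 1.5 times of these under the other scalings, filters and tools, except that scaling by total counts gave 1419 higher and 6224 lower. With the ribosomal RNA level as covariate they were 1656, 1873 and 1316, at 2-fold or more 421, 1449 and 2193, and at an adjusted p under 0.01 the difference of the steps passed for 2236. Without the 30 °C libraries A and B 2151 genes were higher. Leaving out 1 library at a time gave 2618 to 3240 higher, 2861 to 3390 lower and 3317 to 4711 with a difference of the steps. No gene was called in the opposite direction under any alternative run (0 genes). The cause of these moves was not tested. Over 8 same-number pairs the correlation of deviations from the group means ran from -0.044 to 0.425. Over pairs of unlike number it ran from -0.485 to 0.485. With only 2 numbered 30 °C libraries, the deviations of these mirror each other. The values therefore cannot decide whether the mouse numbers pair the samples. A fit with a replicate block on the 10 numbered libraries, so with fewer libraries, gave 1624 higher, 1621 lower and 2468 with a difference of the steps. Under that block Ppargc1a stood at -0.04 and Adipoq at -0.08. Of 171 called genes of the text, 31 lost their call under it and 0 changed sign. In cholesterol synthesis 7 members rose and 1 fell under it, and in glycolysis and glucose uptake 8 and 1. Pyruvate and the TCA cycle had 19 and 1, lipolysis and lipid uptake 5 and 2, and beta-adrenergic and cAMP signalling 3 and 3. Fatty acid synthesis kept 16 rises and 2 falls. The mitochondrial share differed by -4.191 to -2.828 percentage points with 1 library left out, with p = 0.05714 by the exact permutation test where a 22 °C library was left out, and by -3.887 without A and B. Of genes past no threshold, the log2 fold change changed sign for Cd36 (0.09), Ndufs7 (-0.07), Hspa5 (0.04), Lep (0.48) and Gm42418 (-0.00, by construction) with the ribosomal RNA covariate, where Gm42418 is called without it. Under scaling by total counts it did so for Ndufs7 (-0.13) and Adipoq (-0.22), and Adipoq ran from -0.03 to 0.11 with 1 mouse left out and stood at -0.01 with upper-quartile scaling and -0.05 without A and B. Myh4 ran from -0.99 to 0.79 with 1 mouse left out, and stood at 0.43 with the muscle covariate. Genes under 1 CPM rest on few counts, and their fold changes depend on the prior count.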
